A study of Mus musculus with 4 samples.

Results

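Type I interferon-stimulated genes are described here in CD11c+ cells of mouse mesenteric lymph nodes cultured with or without an Ffar2 agonist. The 32 members were chosen by symbol, as genes known to be switched on by type I interferon. All 32 were found among the 55450 gene rows, and all 32 were among the 18297 genes that passed the filter on low counts. Ffar2 is a receptor for short-chain fatty acids, and the study asked how its agonist acts on the transcripts of these cells. Each sample was a pool of mesenteric lymph nodes from wild-type C57BL/6J mice, enriched for CD11c with magnetic beads, and its cells were then divided. For 6 h 1 well received water (control) and the other the Ffar2 agonist at 10 µM. Beads can leave other cell types behind. The chemical name of the agonist, the age of the mice and their sex are not given in the sources used here. There were 2 control and 2 agonist libraries, and both groups carry the replicate numbers 2 and 3. Libraries of the same number are called a pool below. That they come from 1 divided sample is inferred from the protocol and from the sex-linked transcripts below, and the labels do not state it of the numbers. Where values of a group are given as a pair, replicate 2 comes first.

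Type I interferons bind a receptor made of Ifnar1 and Ifnar2, which signals through the kinases Jak1 and Tyk2. Their signal leads to a complex with Stat2 and Irf9 that binds a DNA element known as the interferon-stimulated response element (ISRE). The genes it switches on encode proteins that block viral RNA, translation, entry and budding, sensors that start the response again, and feedback regulators. Dendritic cells sense and answer interferon, and plasmacytoid dendritic cells are known as strong producers of it.

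The element through which these genes are known to be switched on was searched in their promoters. Stretches of 6 members, all with a match, are printed here. RefSeq promoter windows of 300 bases (GRCm38.p6, from 250 bases before to 50 after a transcript start) were found by symbol for 23 of the 32 members. The ISRE core was searched on both strands as GAAA, any 2 bases and GAAA again, which reads TTTC, any 2 bases and TTTC on the opposite strand, with overlapping matches allowed. It was found in the windows of 12 of the 23 members (52.2%), against 3.99% of the 27025 genes with a window and 3.44% of all 32851 windows. A second element, the interferon-gamma activated sequence searched as TTCNNNGAA, was found for 6 of the 23 members (26.1%) and for 9.55% of all genes with a window. Each stretch below holds the 170 bases before the start, 5′ to 3′ on the strand of the gene, with the letters of ISRE core matches in capitals.
Ifit3 (chr19:34583359-34583528, plus strand): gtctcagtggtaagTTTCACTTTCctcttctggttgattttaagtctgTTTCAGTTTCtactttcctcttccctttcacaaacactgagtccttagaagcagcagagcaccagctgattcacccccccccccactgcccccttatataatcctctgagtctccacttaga
Ifit1 (chr19:34640719-34640888, plus strand): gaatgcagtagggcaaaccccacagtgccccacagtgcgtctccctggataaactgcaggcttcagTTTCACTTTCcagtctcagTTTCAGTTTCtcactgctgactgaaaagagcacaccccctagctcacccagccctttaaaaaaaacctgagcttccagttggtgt
Isg15 (chr4:156200819-156200988, minus strand): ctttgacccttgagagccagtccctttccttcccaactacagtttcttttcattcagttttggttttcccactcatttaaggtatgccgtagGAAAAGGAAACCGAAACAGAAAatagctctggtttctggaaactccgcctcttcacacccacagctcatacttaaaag
Oas1a (chr5:120907526-120907695, minus strand): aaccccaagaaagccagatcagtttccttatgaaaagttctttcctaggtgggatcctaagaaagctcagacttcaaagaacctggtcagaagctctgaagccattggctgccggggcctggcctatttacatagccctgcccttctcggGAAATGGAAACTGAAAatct
Bst2 (chr8:71537473-71537642, minus strand): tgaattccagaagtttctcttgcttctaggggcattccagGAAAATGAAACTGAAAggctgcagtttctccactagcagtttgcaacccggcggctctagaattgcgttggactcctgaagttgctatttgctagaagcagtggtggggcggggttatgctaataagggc
Rsad2 (chr12:26456453-26456622, minus strand): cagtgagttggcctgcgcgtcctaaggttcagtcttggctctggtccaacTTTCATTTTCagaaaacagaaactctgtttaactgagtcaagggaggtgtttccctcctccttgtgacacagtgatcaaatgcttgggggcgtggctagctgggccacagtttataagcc
Ifit3 and Ifit1 each hold 2 separate matches on the same strand, Isg15 holds 3 overlapping matches that form 1 run, Oas1a and Bst2 hold 2 overlapping matches, and Rsad2 holds 1. A match describes these letters only and was not tested as a site.

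Reads assigned to genes numbered 43238375 to 59902172 per library. Defining markers of dendritic cells were present in all libraries, among them Itgax, which encodes CD11c, at 95.5 to 189 CPM (the read count of a gene per fixed number of reads in the library, after scaling by TMM) and Flt3 at 147 to 309.8 CPM. The pools differed in sex-linked transcripts. Both libraries of pool 2 had Xist reads (17776 and 21194) and no Ddx3y reads, and both libraries of pool 3 had Ddx3y reads (18752 and 21461) and no Xist reads. Sex and any other difference between the pools therefore cannot be told apart. Pool 2 also had the wider spread between its wells over all genes. There 24.3% of tested genes were higher and 21.3% lower in the agonist well by at least 0.5 on the log2 scale, against 12.3% and 19% in pool 3. In bulk RNA, fewer cells of a type and less RNA per cell cannot be told apart.

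The members were expressed in every library, with 35 to 20345 reads per gene and library. Mean levels over the 4 libraries ran from 1.20 CPM for Cmpk2 to 348 CPM for Oasl1, with a median of 66.6 CPM. Per kilobase of exon, which allows genes to be compared, the order of mean levels began with Oasl1 (133 CPM per kb), Bst2 (113), Usp18 (93.4), Ifi27l2a (82.3) and Isg15 (63.3). It ended with Oas3 (2.34 CPM per kb), Oas2 (2.25), Ifi44 (0.983) and Cmpk2 (0.288). The spread between libraries was wide beside these gaps. Isg15 alone ranged from 24.0 to 88.5 CPM, so neighbours in this order are not separated.

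The members were highest in the control well of pool 2, lowest for most in the control well of pool 3, and intermediate in both agonist wells. Their summed level was 3702 CPM in control replicate 2 and 1984 CPM in control replicate 3, against 2482 CPM in agonist replicate 2 and 2460.5 CPM in agonist replicate 3. Control replicate 2 was the highest of the 4 libraries for 27 of 32 members (31.4% of all tested genes), and control replicate 3 the lowest for 23 of 32 (19.3% of all). Both agonist libraries lay between the 2 control libraries for 22 of 32 members, against 17.1% of all tested genes. The members are read from the same 4 libraries and are known targets of 1 signalling route, so they are not independent observations.

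**Figure D1:**
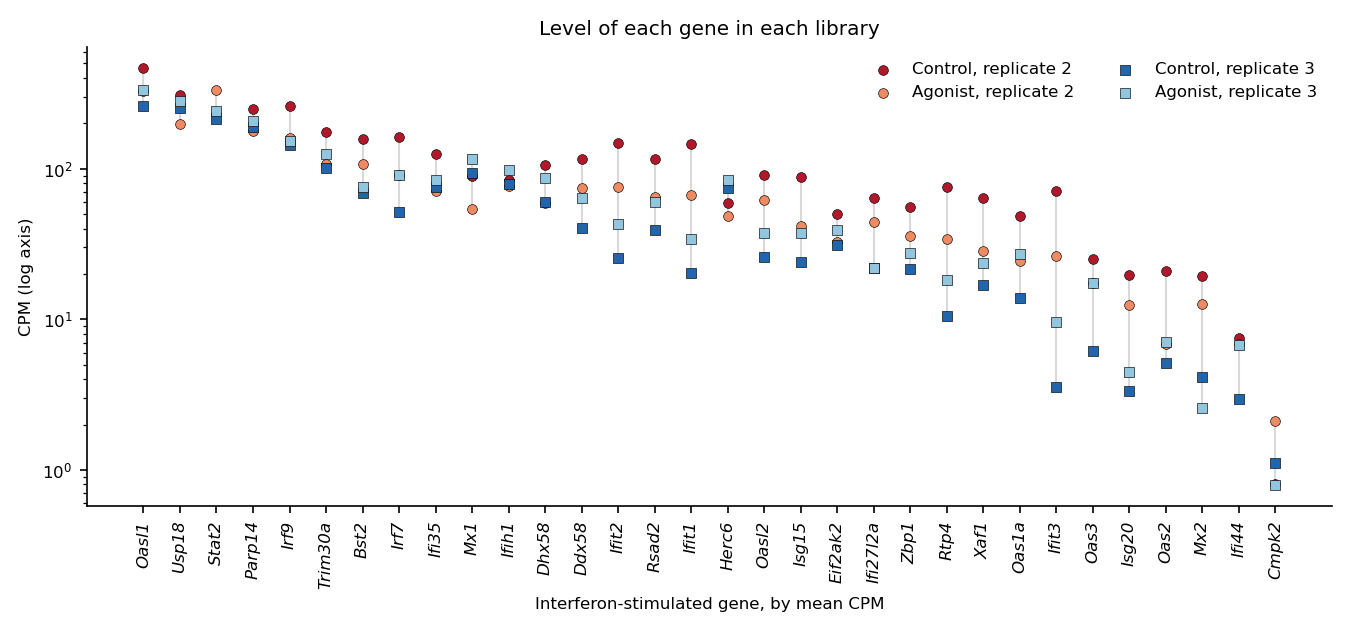
Level of the 32 genes in CPM (log axis) in each of the 4 libraries, ordered by mean level; circles are pool 2, squares pool 3, dark symbols control wells and light symbols agonist wells. Control replicate 2 is the top symbol for 27 genes and control replicate 3 the bottom one for 23.

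Within the pools, the agonist well was lower than the control well in pool 2 and higher in pool 3. The agonist-over-control log2 ratio was negative in pool 2 for 30 of 32 members (56% of all tested genes) and positive in pool 3 for 30 of 32 (49.2% of all). For 29 members it was negative in pool 2 and positive in pool 3, against 28.1% of all tested genes. Only Mx2 was lower in the agonist well of both pools (27.8% of all genes), only Stat2 was higher in both (21%), and only Cmpk2 was higher in pool 2 and lower in pool 3 (22.5%). Scaled by total counts only, 28 members were lower in pool 2 and higher in pool 3 and 2 were lower in both. The median log2 ratio of the members was -0.65 in pool 2 and 0.38 in pool 3, where the medians of all tested genes were -0.09 and -0.0048. Ratios of at least 0.5 in size were found for 26 lower members in pool 2 (21.3% of all genes) and for 13 higher members in pool 3 (12.3% of all), and 12 members passed it in both of these directions (3.97% of all). Within a pool each condition has 1 library, and a term for the difference between the pools would leave no residual degrees of freedom, so that difference was not tested.

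**Figure D2:**
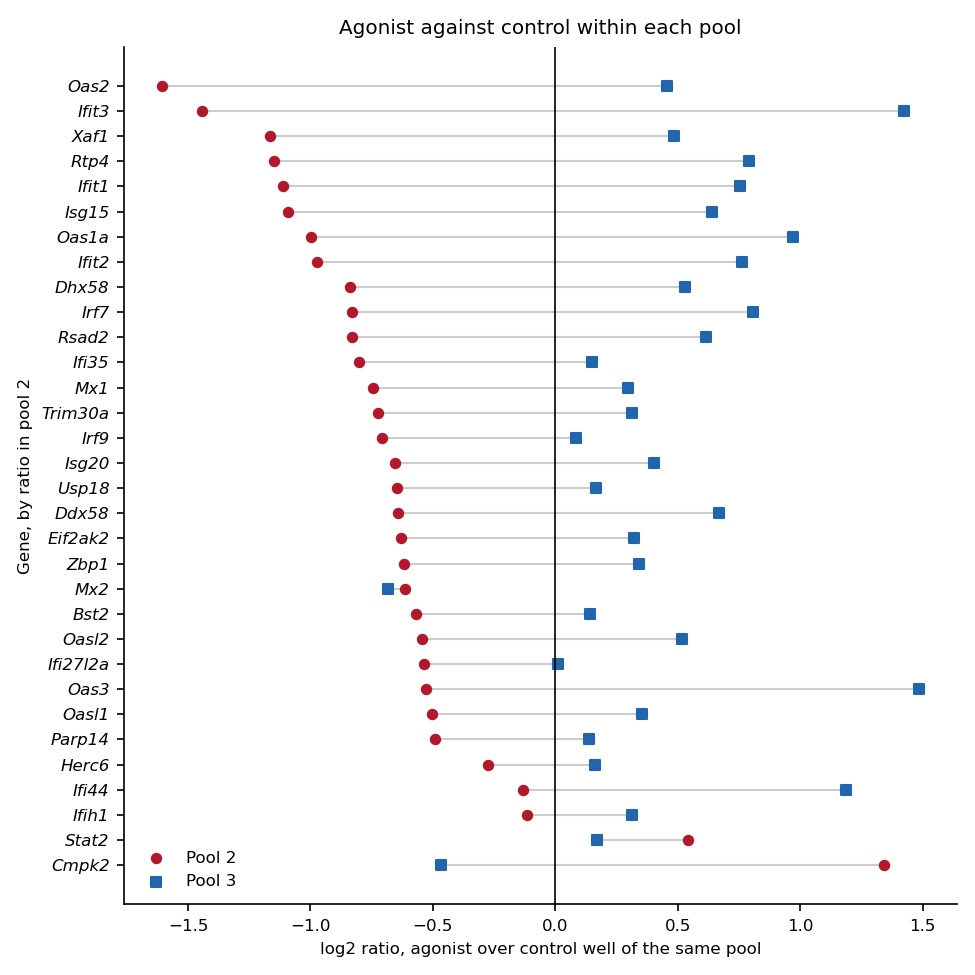
Agonist-over-control log2 ratio of each gene within pool 2 (circles) and within pool 3 (squares), 1 library per condition and pool. For 29 of the 32 genes the circle is left of 0 and the square right of it; Mx2, Stat2 and Cmpk2 are the exceptions.

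The 11 effectors that act on viral RNA and translation all followed this pattern. For each of the 11, control replicate 2 was the highest library (31.4% of all tested genes) and control replicate 3 the lowest (19.3% of all). Ifit3, which with Ifit1 and Ifit2 belongs to a family of proteins that bind foreign RNA and restrain its translation, measured 71.3 and 3.54 CPM in control libraries, against 26.2 and 9.57 CPM in agonist libraries. Its control wells thus differed 19.9-fold between the pools, the widest such gap among the members, and its agonist wells 2.73-fold. Ifit1, which recognises RNA lacking a host cap, measured 145 and 20.3 CPM in control libraries, against 67.0 and 34.2 CPM in agonist libraries. Ifit2 measured 149 and 25.3 CPM in control libraries, against 75.6 and 43.0 CPM in agonist libraries. All 3 genes were higher in both libraries of pool 2 than in both of pool 3, while the agonist libraries lay inside the range of the control libraries. They lie in 1 region of chromosome 19 (GRCm38), Ifit2 at 34550694 to 34576419, Ifit3 at 34583531 to 34588731 and Ifit1 at 34640871 to 34650009.

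The oligoadenylate synthetases make the activator of the RNA-cutting enzyme RNase L. Oas2 had 20.9 CPM in control replicate 2 and 5.15 to 7.09 CPM in the other libraries, so that control replicate 2 stood alone. Its log2 ratio was -1.61 in pool 2, the most negative of all members, and 0.46 in pool 3. Oas3 measured 25.1 and 6.18 CPM in control libraries, against 17.4 CPM in both agonist libraries, with log2 ratios of -0.53 and 1.49. Here control replicate 3 stood apart on the low side. Oas1a measured 48.7 and 13.8 CPM in control libraries, against 24.4 and 27.1 CPM in agonist libraries, with ratios of -0.996 and 0.97. The 3 genes lie in 1 region of chromosome 5, Oas2 at 120730333 to 120749853, Oas3 at 120753098 to 120777661 and Oas1a at 120896256 to 120907521. Oasl1, a relative known to hold back the translation of Irf7, was the most abundant member, with 467 and 261 CPM in the control and 329 and 334 CPM in the agonist libraries. Oasl2 measured 90.2 and 26.1 CPM in control libraries, against 61.8 and 37.3 CPM in agonist libraries, both of pool 2 above both of pool 3.

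Isg20, an exonuclease that degrades RNA, measured 19.7 and 3.35 CPM in control libraries, against 12.5 and 4.44 CPM in agonist libraries. Both values of pool 2 were above both of pool 3, by 5.83-fold in the control and 2.80-fold in the agonist wells. Zbp1, a sensor of Z-form nucleic acids that can start cell death, ranged from 21.7 to 55.3 CPM with the same order of libraries. Eif2ak2, the kinase PKR that stops translation when it binds double-stranded RNA, moved less, from 31.2 to 50.3 CPM, with log2 ratios of -0.63 and 0.32.

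Among the 6 effectors of entry, assembly and nucleotides, the 2 Mx genes differed. Mx2, a dynamin-like GTPase whose gene GENCODE lists as a polymorphic pseudogene, measured 19.3 and 4.14 CPM in control libraries, against 12.6 and 2.56 CPM in agonist libraries, so the agonist well was lower in both pools and both libraries of pool 2 were above both of pool 3. Mx1, which is known to carry an inactivating deletion in C57BL/6 mice, measured 89.9 and 94.0 CPM in control libraries, against 53.6 and 116 CPM in agonist libraries. Both Mx1 values of pool 3 were above both of pool 2. The genes lie on chromosome 16, Mx1 at 97447035 to 97462907 and Mx2 at 97535308 to 97560900. Bst2, or tetherin, which holds budding virions at the cell surface and also marks plasmacytoid dendritic cells, measured 158 and 68.6 CPM in control libraries, against 107 and 75.6 CPM in agonist libraries. Rsad2, or viperin, which makes a chain-ending nucleotide, measured 116 and 39.1 CPM in control libraries, against 65.2 and 59.9 CPM in agonist libraries. Cmpk2, a mitochondrial nucleotide kinase next to it on chromosome 12, was the least abundant member, with 35 to 109 reads per library, and was highest in agonist replicate 2. Rtp4 measured 75.2 and 10.5 CPM in control libraries, against 33.9 and 18.2 CPM in agonist libraries, a gap of 7.13-fold between the control wells.

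In the ISG15 system, the modifier itself varied more than the enzymes that handle it. Isg15, a ubiquitin-like protein joined to other proteins, measured 88.5 and 24.0 CPM in control libraries, against 41.5 and 37.4 CPM in agonist libraries. Its log2 ratio was -1.09 in pool 2 and 0.64 in pool 3. Usp18, which removes Isg15 and also damps the interferon receptor, measured 309.6 and 252 CPM in control libraries, against 198 and 283 CPM in agonist libraries, so agonist replicate 2 was the lowest. Herc6, the ligase for Isg15 in mice, measured 59.0 and 74.7 CPM in control libraries, against 48.7 and 83.6 CPM in agonist libraries, with both values of pool 3 above both of pool 2.

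The RNA sensors of the RIG-I family, which recognise viral RNA in the cytosol, followed the common direction to different degrees. Ddx58, the gene of RIG-I, measured 117 and 40.2 CPM in control libraries, against 74.8 and 63.9 CPM in agonist libraries, with log2 ratios of -0.64 and 0.67. Dhx58, the regulator LGP2, measured 106 and 60.4 CPM in control libraries, against 59.5 and 87.3 CPM in agonist libraries, with ratios of -0.84 and 0.53. Ifih1, the gene of MDA5, spanned only 77.1 to 98.3 CPM, with ratios of -0.12 and 0.31.

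The transcription factors of the response did not move together. Stat2 measured 229.5 and 213 CPM in control libraries, against 334 and 240.2 CPM in agonist libraries, with log2 ratios of 0.54 and 0.17. It was the only member whose agonist libraries were both above both control libraries (11.4% of all tested genes), and no member had both below (13.5% of all). Irf9, the DNA-binding partner of the complex, measured 260.0 and 144 CPM in control libraries, against 159 and 153 CPM in agonist libraries, so control replicate 2 stood above the rest. Irf7, the factor that amplifies interferon production, measured 161 and 51.6 CPM in control libraries, against 90.8 and 90.3 CPM in agonist libraries, with ratios of -0.83 and 0.81. Exons of Irf9 and Irf7 overlap those of the genes Rnf31 and Phrf1, so a share of their reads may have been set aside as ambiguous. The same holds for Oasl1, Usp18, Parp14, Ifi35, Dhx58, Eif2ak2, Herc6 and Rtp4, whose exons overlap those of other annotated genes.

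Of the 6 other induced genes, all 6 were highest in control replicate 2 (31.4% of all tested genes). Parp14, an ADP-ribosyltransferase, measured 249 and 189 CPM in control libraries, against 177 and 208 CPM in agonist libraries. Trim30a measured 177 and 101 CPM in control libraries, against 107 and 126 CPM in agonist libraries. Ifi35 measured 124 and 76.0 CPM in control libraries, against 71.3 and 84.4 CPM in agonist libraries. For these 3 abundant genes the other libraries lay close together below control replicate 2. Xaf1, which promotes cell death, measured 63.8 and 17.0 CPM in control libraries, against 28.4 and 23.8 CPM in agonist libraries, with log2 ratios of -1.17 and 0.48. Ifi27l2a, a small membrane protein gene, measured 64.3 and 21.8 CPM in control libraries, against 44.4 and 21.9 CPM in agonist libraries, and its ratio of 0.01 in pool 3 was the closest to 0. Ifi44 measured 7.53 and 2.95 CPM in control libraries, against 6.87 and 6.75 CPM in agonist libraries, and control replicate 3 alone was low.

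Tested over both pools, no member passed the threshold between agonist and control. In edgeR's quasi-likelihood test the count was 0 of 32 at an adjusted p under 0.05, where the percentage called over all 18297 genes was 0%, and 0 of 32 at an unadjusted p under 0.05, against 1.58% of all genes. Their median log2 fold change was -0.27, against -0.05 over all genes. Of the members 27 of 32 were negative, and of all tested genes 10142 of 18297. Oas2 had the smallest unadjusted p (0.213), with a log2 fold change of -0.90 (SE 0.65, 95% interval -2.48 to 0.67, edgeR adjusted p = 0.9999). For Ifit3, at 37.4 ± 47.9 CPM under control and 17.9 ± 11.8 CPM under agonist (SD, n = 2 each), the fitted value was -1.06 on the log2 scale (SE 1.18, 95% interval -3.93 to 1.80). Stat2, at 221 ± 11.5 CPM under control and 287 ± 66.7 CPM under agonist (SD, n = 2 each), had 0.38 (SE 0.28, 95% interval -0.30 to 1.06). The remaining genes with the smallest p were Ifi35 (-0.36, SE 0.33), Irf9 (-0.37, SE 0.34) and Xaf1 (-0.63, SE 0.60). For the most abundant members it was -0.14 for Oasl1 (SE 0.34), -0.23 for Usp18 (SE 0.30), -0.19 for Parp14 (SE 0.28), -0.26 for Trim30a (SE 0.34), -0.32 for Bst2 (SE 0.44) and -0.23 for Irf7 (SE 0.52). For members with wide gaps between pools it was -0.71 for Ifit1 (SE 0.84), -0.55 for Ifit2 (SE 0.76), -0.44 for Isg20 (SE 0.87), -0.63 for Mx2 (SE 0.93), -0.38 for Ifi27l2a (SE 0.58), -0.28 for Oas1a (SE 0.57) and 0.15 for Oas3 (SE 0.63). Each standard error in these 2 sentences exceeds the size of its estimate. These fits do not use the pairing of the wells.

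With the pool as a block the 95% intervals of all 32 members were narrower, and several estimates moved. Ifit3 then had a log2 fold change of -0.04 (95% interval -1.44 to 1.36), Ifit1 of -0.18 (95% interval -1.13 to 0.76) and Mx2 of -0.65 (SE 0.33, 95% interval -1.41 to 0.10). The count stayed at 0 of 32 (0.00547% of all genes called), and at an unadjusted p under 0.05 it was also 0 of 32, against 3.53% of all genes. DESeq2 and limma-voom called 0 of 32 as well (0.0383% and 0% of all genes). The direction of the median rested on 1 library. Without control replicate 2 it was 0.58, a fit that sets 1 control library of pool 3 against both agonist libraries, and without control replicate 3 it was -0.70.

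Between the pools, these genes differed mainly in the control wells, where each pool has 1 library. A difference between the pools and a deviation of a single control well therefore cannot be told apart there. In the control wells 29 of 32 members (49.4% of all tested genes) were lower in pool 3 than in pool 2, with a median log2 ratio of -1.44 (0.0080 over all tested genes). In the agonist wells 20 of 32 (51.9% of all) were lower, with a median of -0.09 (-0.04 over all genes). Control replicate 2 exceeded control replicate 3 at least 2-fold for 19 of 32 members (11.8% of all genes), and agonist replicate 2 exceeded agonist replicate 3 at least 2-fold for 5 of 32 (15.8% of all), which were Ifit3, Isg20, Mx2, Ifi27l2a and Cmpk2. The median fold between pool 2 and pool 3 was 2.72 in the control and 1.07 in the agonist wells. For 25 of 32 members the gap between the pools was smaller in the agonist than in the control wells, against 47.5% of all tested genes. Mx2 kept its gap, with 4.63-fold in the control and 4.86-fold in the agonist wells.

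**Figure D3:**
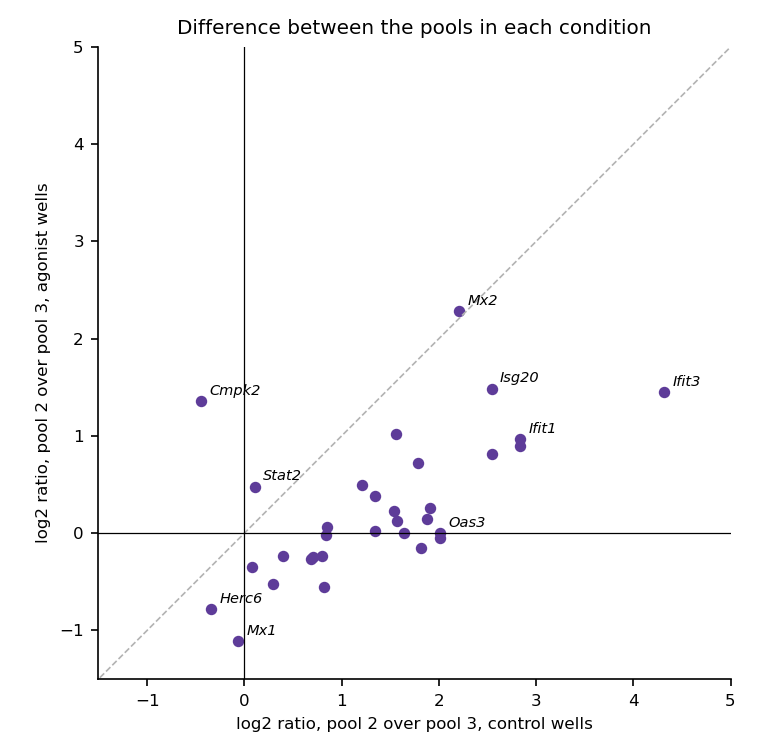
Difference between the pools for each of the 32 genes as the log2 ratio of pool 2 over pool 3, in the control wells (horizontal axis) and in the agonist wells (vertical axis); the dashed line marks equal gaps. Most points lie right of 0 and below the dashed line, and Mx2 lies next to it.

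In edgeR's test of pool 3 against pool 2, with condition as a covariate, Mx2 was the only member past the threshold. Mx2 fell by 2.26 on the log2 scale (SE 0.35, 95% interval -3.05 to -1.47, edgeR adjusted p = 0.0361), lower in both conditions. Its level was 15.9 ± 4.75 CPM in pool 2 and 3.35 ± 1.12 CPM in pool 3 (SD, n = 2 wells). Each SD is over 1 control and 1 agonist well, so it includes the difference between conditions. Over all genes, 0.29% were called lower and 0.104% higher in pool 3. At an unadjusted p under 0.05, 14 of 32 members were lower in pool 3 (7.71% of all genes) and 0 were higher (6.15% of all). The next members by p were Isg20 (-2.02, SE 0.39, edgeR adjusted p = 0.0733), Ifit3 (-2.87, SE 0.63, edgeR adjusted p = 0.0894), Ifi27l2a (-1.29, SE 0.28, edgeR adjusted p = 0.0894), Ifit1 (-1.90, SE 0.43, edgeR adjusted p = 0.0904) and Ifit2 (-1.68, SE 0.40, edgeR adjusted p = 0.108), none of which passed. The median log2 difference of the members was -0.84, against -0.0061 over all genes. Both libraries of pool 3 were below both of pool 2 for 18 of 32 members (25.2% of all genes) and above for 2, Mx1 and Herc6 (24% of all). With 1 pool on each side, these p-values measure how far wells of a pool spread, not how far pools do.

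The number of members called between the pools depended on the fit, and the share of all genes called moved with it. DESeq2 called 8 members (3.86% of all genes), limma-voom 7 (1.5%) and edgeR without the filter on low counts 8 (2.1%), against 1 member and 0.394% of all genes in the edgeR test above. Mx2 was called in these 3 fits, and in edgeR with a stricter filter (adjusted p = 0.0386) and with DESeq2 size factors (adjusted p = 0.0431). Its edgeR adjusted p was 0.175 with total counts only and 0.132 with the pool as the only term, where its log2 differences were -2.34 and -2.25. With the pool as the only term and 1 library left out, it was 0.0522 without control replicate 2, 0.513 without control replicate 3, 0.0163 without agonist replicate 2 and 0.533 without agonist replicate 3. The number of members called in these 4 fits was 3 (4.25% of all genes), 0 (0.00508%), 16 (7.98%) and 0 (0.0504%), in that order.

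**Figure D4:**
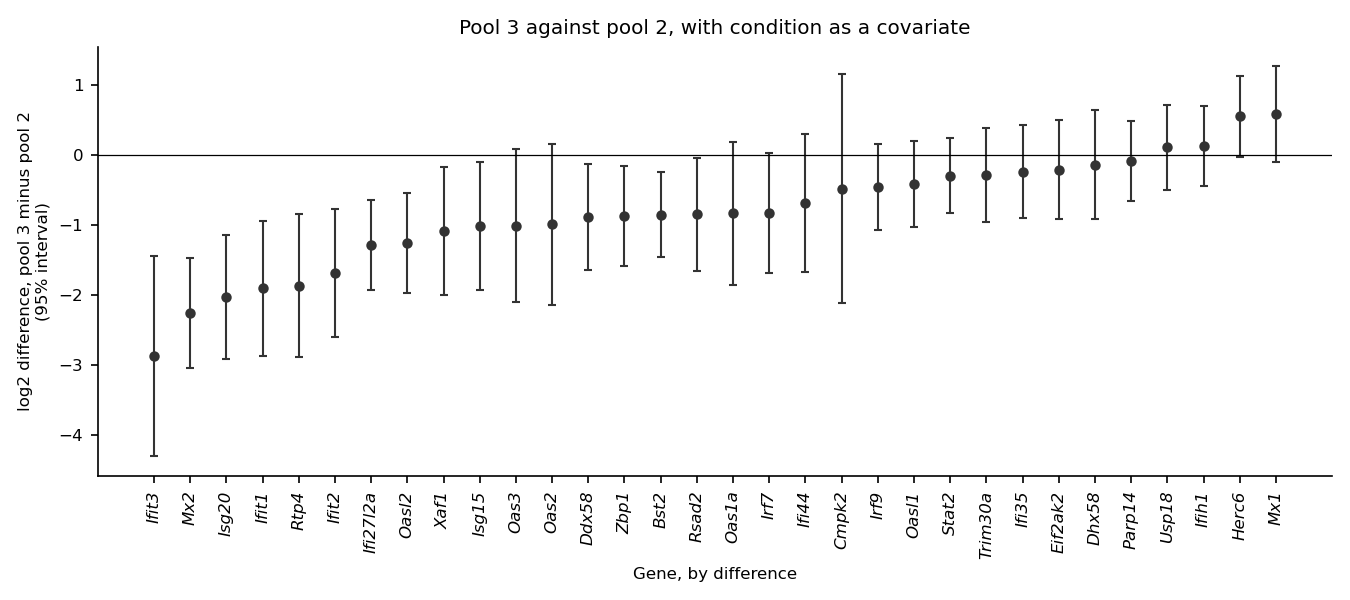
Fitted log2 difference of each gene, pool 3 minus pool 2, with condition as a covariate; points are edgeR estimates and bars their 95% intervals, from 2 libraries per pool. Of the 32 genes 28 have an estimate below 0 (9228 of all 18297 tested genes), and Mx2 alone passed the adjusted threshold.

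The genes that make interferon were at or near 0 in these libraries. Of 21 interferon genes, 16 were listed at 0 in all 4 libraries, all 13 interferon-alpha genes among them, with Ifnab, Ifne and Ifnz. A count of 0 allows up to 3 reads, or 0.0529 to 0.0689 CPM by library, and covers counting error only. Reads that align to several near-identical interferon-alpha genes were not counted for any of them. Ifnb1, the interferon-beta gene, was counted with 4 and 2 reads under control, against 7 and 0 under agonist. Ifnk had 0 to 6 reads, Ifnl2 had 18 reads in agonist replicate 2 and 0 to 1 elsewhere, and Ifnl3 had 11 in control replicate 2 and 0 elsewhere. Ifng, the type II interferon, had 19 reads in agonist replicate 3 and 1 to 3 elsewhere. None of the 21 passed the filter, so no ligand was tested.

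Receptor and kinase genes are given for comparison. Ifnar1 measured 439.7 and 435 CPM in control libraries, against 624 and 458 CPM in agonist libraries, with log2 ratios of 0.50 and 0.07. Ifnar2 measured 12.0 and 12.7 CPM in control libraries, against 31.7 and 9.84 CPM in agonist libraries, so agonist replicate 2 stood alone. Of the 10 receptor and kinase genes, 0 passed in either comparison (0% of all tested genes for the agonist, 0.394% between the pools). Their median log2 ratio was 0.47 in pool 2 and 0.03 in pool 3. Tyk2 measured 195 and 457 CPM in control libraries, against 368 and 528 CPM in agonist libraries, higher in both libraries of pool 3 (unadjusted p = 0.00857, edgeR adjusted p = 0.175). Ifnlr1, the lambda receptor, measured 6.55 and 6.22 CPM in control libraries, against 12.2 and 9.59 CPM in agonist libraries, both agonist values above both control values (unadjusted p = 0.0777, edgeR adjusted p = 0.9999).

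Of 14 sensors and adaptors, 5 interferon transcription factors, 5 feedback inhibitors and 11 tested genes of the interferon-gamma response, 0 passed in either comparison. Over all tested genes the shares called were 0% for the agonist and 0.394% between the pools, so a count of 0 does not set these lists apart. The factor Irf8, which also drives the cDC1 lineage, measured 126 and 279.7 CPM in control libraries, against 505 and 264 CPM in agonist libraries, with a log2 ratio of 2.00 in pool 2 and -0.09 in pool 3. Irf1 measured 998 and 1140.1 CPM in control libraries, against 839.6 and 1246 CPM in agonist libraries. Socs3 had 0.829 to 4.35 CPM and Socs1 0.613 to 2.10 CPM, both highest in agonist replicate 2. The interferon-gamma list had median log2 ratios of -0.31 in pool 2 and 0.22 in pool 3. Cxcl10, a chemokine that answers both interferon types, measured 48.7 and 12.7 CPM in control libraries, against 25.1 and 18.6 CPM in agonist libraries, the order of libraries seen for most members. Irgm1, a GTPase against intracellular microbes, measured 169.6 and 72.5 CPM in control libraries, against 101 and 90.3 CPM in agonist libraries, again in that order. Ido1, which breaks down tryptophan, instead measured 22.8 and 63.2 CPM in control libraries, against 23.0 and 74.6 CPM in agonist libraries, high in both libraries of pool 3 (edgeR adjusted p = 0.0510).

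Markers of other cell types also differed between the libraries. The summed level of 7 plasmacytoid dendritic cell markers was 976 and 656 CPM in control libraries, against 767 and 435 CPM in agonist libraries. Of these 7 markers, 6 were lower in the agonist well of both pools (27.8% of all tested genes). Siglech, their lectin, measured 475 and 247 CPM in control libraries, against 335 and 165 CPM in agonist libraries, and none of the 7 markers was at 0. Klk1 of this list fell in pool 3 (log2 difference -2.49, edgeR adjusted p = 0.0249). B cell markers (6 genes) summed to 728 and 401 CPM in control libraries, against 637 and 335 CPM in agonist libraries, and T cell markers (7 genes) to 623 and 296 CPM in control libraries, against 433 and 212 CPM in agonist libraries. All 6 and all 7 were lower in the agonist well of both pools (27.8% of all tested genes), and none was at 0. Monocyte and macrophage markers (8 genes) summed to 5366 and 3022 CPM in control libraries, against 4860.0 and 3327 CPM in agonist libraries. For 5 of the 8 the agonist well was lower in pool 2 and higher in pool 3 (28.1% of all tested genes), with medians of -0.25 and 0.09. Neutrophil markers (5 genes) were scarce, with a sum of 15.9 and 6.09 CPM under control and of 8.83 and 9.27 CPM under agonist, and Ly6g was at 0 in all libraries. All 3 of them that were tested were lower in the agonist well of pool 2 and higher in that of pool 3, as most members were. This held for 28.1% of all tested genes. The median ratios of the 3 were -0.72 and 0.61. Markers of cDC1 (6 genes) summed to 197 and 408 CPM under control and to 587 and 434 CPM under agonist, so that control replicate 2 was lowest and agonist replicate 2 highest. Irf8 made up most of the cDC1 sum in all 4 libraries, and the order of the sum was not that of most of its genes. Gene by gene, agonist replicate 3 was highest for 3 of the 6 cDC1 markers (22.9% of all tested genes). Agonist replicate 2 was highest for 1 (4702 of 18297 genes), and control replicate 2 was lowest for 3 (4779 of 18297). The stromal and endothelial list summed to 47.4 to 97.3 CPM. The plasmacytoid, B and T cell lists were thus higher in pool 2 like most members, but lower and not higher in the agonist well of pool 3. The sums of the monocyte and macrophage list and of the scarce neutrophil list were highest in control replicate 2 and lowest in control replicate 3. Gene by gene, control replicate 2 was highest for 5 of the 8 monocyte and macrophage markers (31.4% of all tested genes). Control replicate 3 was lowest for 4 of them (19.3% of all). Of the 3 tested neutrophil markers, control replicate 2 was highest for 1, control replicate 3 lowest for 1, and agonist replicate 3 highest for 2 (22.9% of all). The part of any of these lists in the members' differences was not tested.

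**Figure D5:**
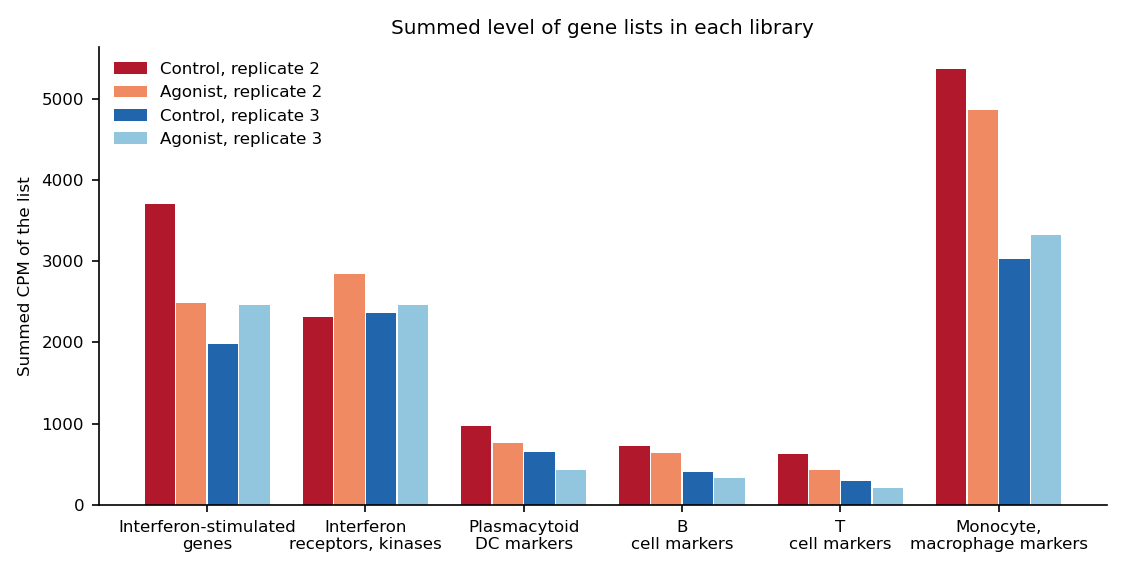
Summed level in CPM of the 32 interferon-stimulated genes, of receptor and kinase genes and of 4 lists of cell type markers, with 1 bar per library. The interferon-stimulated genes are highest in control replicate 2 and higher in the agonist than the control well of pool 3, where the plasmacytoid, B and T cell lists are lower in the agonist well. The monocyte and macrophage list is also highest in control replicate 2 and higher in the agonist than the control well of pool 3.

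Promoter windows and the size of the gap between the control wells were set side by side as a description. The 12 members with an ISRE core in a window had control replicate 2 over control replicate 3 folds of 1.06 to 19.9 with a median of 2.93. The 11 members with a window and no match had folds of 0.733 to 5.86 with a median of 2.54. The 5 members with at least 2 matches, Ifit3, Ifit1, Isg15, Oas1a and Bst2, had folds of 2.31 to 19.9 with a median of 3.68. The 7 members with exactly 1 match had folds of 1.06 to 4.04 with a median of 1.74, below that of the members with no match. The ranges overlap, and 9 members had no window.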

How the data were processed

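The deposited files hold read counts per gene, not normalized by the authors, for 4 libraries of CD11c+ mesenteric lymph node cells. Per the labels' protocols, SMART-seq v4 was the library kit. The submitters' processing notes name the aligner STAR (2.7), the counter HTSeq (0.11.1) and the build GRCm38 (mm10). The strand setting is not given in the sources used here, so antisense overlaps cannot be told apart. Reads overlapping several genes (5.77% to 6.50% per library) or aligned to several places (6.54% to 6.98%) were counted for no gene, which can lower near-identical genes such as the Ifit and Oas families. Reads that fell in no counted gene feature made up 16.0% to 19.99%. All 55450 rows matched GENCODE M21, which gave coordinates and exon lengths.

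Counts were tested with edgeR 4.0.16 (R 4.3.3) by the two-sided quasi-likelihood test, after the default filter (minimum count 10) and TMM scaling (factors 0.947 to 1.05), with Benjamini-Hochberg adjustment over 18297 genes. CPM values use TMM-scaled library sizes, and log2 ratios of single libraries a prior count of 2. The agonist comparison had group as its only term; alternatives were the pool as a block, DESeq2 1.42.0, limma-voom (limma 3.58.1), other scalings and filters, and each library left out. Same-numbered libraries were taken to come from 1 divided sample, an inference from the protocol and the Xist and Ddx3y reads, and deviated together from their group means (r = 0.288 over all tested genes, 0.594 over the members). Nothing says that the pools came from separate experiments, so p-values measure the spread between these pools and wells. The agonist tests were run on simulated counts that held no difference between pools. That check therefore does not cover the pool test or the effect of the pools on the agonist fit. Members and gene lists were chosen with earlier results of these data known. Full values and tests are given for members by mean level, smallest p in either comparison and largest gap between the pools' ratios; other members are given by levels and ratios. Pathway genes are the ligands, the type I receptors and some of those with the smallest p of each list; Ifnlr1 and Irgm1 were named after their values were seen. Not every gene of the pathway lists is reported here.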

Additional observations from a re-analysis of the deposited data

Results flagged for a closer look

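The agonist-over-control ratio pointed in opposite directions in the pools, a difference between the pools that was not tested, since each pool has 1 library per condition. The median log2 ratio of the 32 members was -0.65 in pool 2 and 0.38 in pool 3. For 12 members both ratios were at least 0.5 in size, negative in pool 2 and positive in pool 3. Among RNA effectors the ratios in pool 2 and pool 3 were -0.98 and 0.76 for Ifit2, -1.11 and 0.75 for Ifit1, -0.54 and 0.52 for Oasl2, -0.996 and 0.97 for Oas1a, -1.44 and 1.42 for Ifit3, -0.53 and 1.49 for Oas3. For the other members they were -0.83 and 0.81 for Irf7, -0.84 and 0.53 for Dhx58, -0.64 and 0.67 for Ddx58, -0.83 and 0.61 for Rsad2, -1.09 and 0.64 for Isg15, -1.15 and 0.79 for Rtp4.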

How the results depend on the processing

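The count of members called between agonist and control was 0 under every alternative run. With the pool as a block (paired fit) it was 0 and the median log2 fold change -0.15, and the block changed no call of a member; the log2 fold change was 0.0078 for Ifit3, 0.013 for Oas1a and 0.016 for Irf7 in the blocked DESeq2 fit, and 0.060, 0.017 and 0.00038 in limma-voom, against negative values in the unblocked edgeR fit of all 4 libraries. Leaving out 1 library gave medians of -0.70 to 0.58, and turned the sign of single members, always short of the threshold: Ifit1 -1.43 to 1.32, Ifit2 -1.24 to 1.22, Ifit3 -1.93 to 2.33, Oas1a -0.85 to 0.90, Oas2 -1.51 to 0.44, Oas3 -0.46 to 1.49, Oasl1 -0.42 to 0.34, Isg20 -1.34 to 1.34, Mx2 -2.16 to 0.87, Bst2 -0.72 to 0.41, Usp18 -0.51 to 0.045, Irf9 -0.66 to 0.11, Irf7 -0.76 to 0.81, Ifi35 -0.60 to 0.034, Ifi27l2a -0.94 to 0.60, Trim30a -0.53 to 0.20, Parp14 -0.31 to 0.023, Xaf1 -1.21 to 0.62. Most turned without control replicate 2, in fits where the pools are unequal between the groups. Between the pools, the count of members called was 1 (0.394% of all genes), with 0 under total counts only (0.0273%), 8 without a filter (2.1%), 8 in DESeq2 (3.86%), 7 in limma-voom (1.5%), 0 with the pool as the only term (0.0273%) and 0 to 16 when 1 library was left out (0.00508% to 7.98%). There the sign turned for Usp18 (-0.19 to 0.44), Stat2 (-0.56 to 0.0020), Ifi35 (-0.61 to 0.18), Trim30a (-0.62 to 0.091), Parp14 (-0.30 to 0.17). The median within-pool ratios kept their signs under other scalings and prior counts (-0.65 to -0.59 in pool 2, 0.30 to 0.41 in pool 3). The 2 libraries a group limit what could be detected.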
